A study of Saccharomyces cerevisiae with 16 samples.

Results

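The genes of the large (60S) subunit of the cytosolic ribosome were followed in budding yeast across 3 vacuole mutants and their wild type. A gene was taken as a member if its standard name is RPL with a number and an optional A or B, or RPP0, RPP1A, RPP1B, RPP2A or RPP2B, and genes of the mitochondrial ribosome (MRPL) were left out. This gave 81 of the 6844 genes in the deposited tables. With the paralogous genes of a pair, named A and B, counted as the same protein, they encode 46 proteins, 35 of them from a pair and 11 from a single gene. The rule uses gene names alone and no measured value.

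The 16 libraries were 4 each of *atg18∆*, *fab1∆*, *vph1∆* and wild type. Each mutant carries its deletion as a NatMX replacement, and all 4 strains share the alleles CAT5(91M), HAP1+, MIP1(661T), MKT1(30G), RME1(INS-308A), SAL1+ and TAO3(1493Q). Cells were grown in SDC, a synthetic complete glucose medium, at room temperature to an OD600 of 0.05, in 2 cultures on each of 2 days, and the labels do not say which libraries share a day. The p-values therefore measure the spread between these cultures of 1 strain each, and the mutants are haploids from tetrad dissection, for which the number of independent segregants is not given in the sources used here. Fab1 is the kinase that makes the vacuolar lipid PtdIns(3,5)P2, Atg18 acts with the Fab1 complex, and Vph1 is the vacuole-specific subunit of the proton pump (v-ATPase), so the comparisons ask how the ribosomal genes stand when vacuolar lipid signalling or vacuolar acidification is altered.

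In growing yeast, the ribosomal protein genes are among the most strongly transcribed of all, and their transcription is coordinated by the DNA-binding factor Rap1 with Fhl1 and Ifh1 and is regulated by the TORC1 and protein kinase A pathways in answer to nutrients. The 60S subunit holds the peptidyl transferase centre, where amino acids are joined, the tunnel through which the new chain leaves, and a flexible stalk of P proteins that receives elongation factors. Most of its proteins come from paralogous gene pairs that arose from a whole-genome duplication, and the genes of a pair often differ in level although their products are nearly or fully identical.

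Values are TPM, in which reads are divided by transcript length and each library sums to the same total, a scale meant for setting different genes side by side. In wild-type replicate 3 the values departed from the other wild-type libraries with coding length (below), so there short and long genes are not comparable in this way. The deleted genes ATG18 and VPH1 followed the labels, and FAB1 was lower in its deletion without falling near 0. ATG18 was at 0 to 0.0106 TPM in *atg18∆* against 3.27 to 10.53 TPM in wild type, VPH1 was at 0 to 0.191 TPM in *vph1∆* against 42.3 to 113 TPM in wild type, and FAB1 kept 1.28 to 1.58 TPM in *fab1∆* against 1.77 to 3.55 TPM in wild type. Those ranges did not overlap, but values per gene do not show which part of FAB1 the remaining reads come from, so they do not check the extent of that deletion. All strains had the RNAs of a cells, and MFA1, which encodes the a-factor pheromone, had strain means of 4609 TPM (*atg18∆*), 6853 TPM (*fab1∆*), 4696 TPM (*vph1∆*) and 6418 TPM (wild type), against 1.2 to 2.39 TPM for MF(ALPHA)1, the gene of the other mating type. The wild-type mean of MFA1 includes 10154.5 TPM in replicate 3, against 5271, 5278 and 4967 TPM in the other wild-type libraries.

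The reads of paralogues can be told apart only where their sequences differ, and the shorter the stretch, the less a count rests on. Sequences below were read from the RefSeq R64 genome, the build called sacCer3, and capitals mark the bases at which the genes of a pair differ. RPL41A and RPL41B, which encode a very short basic protein and gave the highest TPM of all members, differ at 1 of 78 coding bases. They are shown because their values dominate the sums below, and because few reads can be assigned to the one or the other. Both lie on the minus strand of chromosome IV, RPL41A at 130407 to 130484 and RPL41B at 221724 to 221801, each a single coding exon.
RPL41A: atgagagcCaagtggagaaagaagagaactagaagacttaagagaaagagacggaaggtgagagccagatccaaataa
RPL41B: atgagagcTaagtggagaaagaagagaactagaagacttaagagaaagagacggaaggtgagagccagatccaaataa

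Of the pairs on which the account of paralogue balance turns, RPL15 and RPL8 differ at many bases, RPL7 at fewer and RPL35 at very few. For each, the 60 coding bases within 1 exon that differ most are shown. RPL15A (chromosome XII, 201977 to 202036, minus strand) and RPL15B (chromosome XIII, 509735 to 509794, minus strand) differ at 10 of the 60.
RPL15A: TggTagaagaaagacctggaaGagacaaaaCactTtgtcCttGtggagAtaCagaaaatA
RPL15B: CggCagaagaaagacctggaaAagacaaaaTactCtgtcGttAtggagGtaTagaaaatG
RPL8A (chromosome VIII, 35597 to 35656, minus strand) and RPL8B (chromosome XII, 48201 to 48260, minus strand) differ at 7.
RPL8A: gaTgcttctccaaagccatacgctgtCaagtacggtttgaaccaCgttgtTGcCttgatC
RPL8B: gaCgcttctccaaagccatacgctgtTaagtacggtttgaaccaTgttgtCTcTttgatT
RPL7A (chromosome VII, 365433 to 365492, minus strand) and RPL7B (chromosome XVI, 173606 to 173665, plus strand) differ at 10.
RPL7A: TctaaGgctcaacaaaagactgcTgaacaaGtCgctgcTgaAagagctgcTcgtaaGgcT
RPL7B: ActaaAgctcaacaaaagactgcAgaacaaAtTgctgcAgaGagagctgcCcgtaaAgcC
RPL35A (chromosome IV, 118158 to 118217, plus strand) and RPL35B (chromosome IV, 218008 to 218067, plus strand) differ at only 2.
RPL35A: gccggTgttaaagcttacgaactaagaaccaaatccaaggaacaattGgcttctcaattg
RPL35B: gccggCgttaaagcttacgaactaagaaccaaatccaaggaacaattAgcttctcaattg
Over the whole coding sequence RPL15A and RPL15B differ at 42 of 615 bases, and RPL8A and RPL8B at 38 of 771. RPL7A and RPL7B differ at 24 of 735, and RPL35A and RPL35B at 3 of 363. Of the 31-base words of RPL8A, 79.9% are found in no other coding sequence. For RPL7A this share was 35.0%, for RPL42A 35.7%, for RPL4A 18.6%, for RPL35A 15.0% and for RPL1A 12.3%, so the split between the genes of these pairs rests on a small part of their reads and is uncertain.

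Of the 81 genes, 53 have an intron in the coding sequence. A binding site of the type used by Rap1, searched as ACACCC, 2 bases of any kind and then ACA on both strands of the 500 bases before the start codon, stood before 11 of the 81 members (13.6%), against 57 of 6002 genes of the genome (0.95%). Of the small-subunit genes, 8 of 56 had it (14.3%). A looser form, ACCC, 2 bases of any kind and then ACA, which every match of the longer one contains, stood before 36 of the 81 members (44.4%), 18 of 56 small-subunit genes (32.1%) and 329 of 6002 genes (5.48%). The longer match before 5 members that return below is given in capitals, read on the strand of the gene. RPL25 is at chromosome XV, 79941 to 79969, RPL42B at chromosome VIII, 383094 to 383122, RPL8A at chromosome VIII, 36247 to 36275, RPL7A at chromosome VII, 366230 to 366258, and RPL22B at chromosome VI, 65160 to 65188.
RPL25: tatttaataTGTACGGGTGTttacatgga
RPL42B: acatccgatACACCCATACAtcatgaaaa
RPL8A: atgaagaaaACACCCAAACAtatctaggc
RPL7A: atcatataaACACCCACACAtatctataa
RPL22B: tccatgtcaACACCCGTACAtattcagag
RPL25 carries the match on the opposite strand, the others on the strand of the gene.

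Levels of the members spanned a wide range. RPL41A averaged 37678 TPM and RPL41B 22077 TPM over the 16 libraries, followed by RPL29 (8323 TPM), RPL38 (7445 TPM) and RPL39 (7386 TPM), all small proteins that cells can live without. These genes also have the shortest coding sequences of the members, 78 to 237 bases, and TPM divides by length. RPL39 read 18111 TPM in wild-type replicate 3 (below) and averaged 6671 TPM over the other libraries, so its place rests partly on that library. At the other end were RPL15B (35.5 TPM), RPL7B (357 TPM), RPL22B (357 TPM), RPL18B (408 TPM) and RPL9B (820 TPM), each the weaker gene of its pair. When the genes of a pair were added together, the range closed. Without RPL41 and without wild-type replicate 3 (below), the summed level of the remaining 45 proteins ran from 2471 TPM for RPL5, which binds the 5S rRNA, to 12283 TPM for RPP1. RPP1 adds the stalk genes RPP1A and RPP1B, whose coding sequences differ at 172 of 321 bases when compared without gaps. The median was 4695 TPM, and 43 of the 45 proteins were within 2-fold of it.

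One library stood apart. In wild-type replicate 3 the members took 40.8% of all TPM, against 26.6% to 29.0% in the other 15 libraries, and RPL41A and RPL41B alone took 18.7%, against 4.58% to 5.76%. The difference from the other 3 wild-type libraries followed coding length. RPL41A stood at 111571 TPM in this library and at 31139, 31146 and 32858 TPM in the other wild-type libraries, and RPL39, another very short gene, at 18111 TPM against 6370, 6623 and 6257 TPM. RPP0, the long gene for the stalk base, went the other way, with 927 TPM against 3630, 3564 and 3299 TPM. All 16 members over 600 coding bases were below the mean of the other wild-type libraries and 7 of the 9 under 300 bases were above it. Across the 81 genes, which are not independent replicates and share these libraries, the log2 ratio of this library to the others had a Pearson r of -0.86 and a Spearman rho of -0.81 with log2 coding length. The study states that a wild-type sample was eliminated for RNA quality without naming it, so all 16 libraries were kept, and each comparison is given with and without wild-type replicate 3. The median coefficient of variation of the members was 2.64% in *atg18∆*, 2.68% in *fab1∆*, 3.63% in *vph1∆* and 18.5% in wild type, or 2.51% in wild type without replicate 3.

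**Figure D1:**
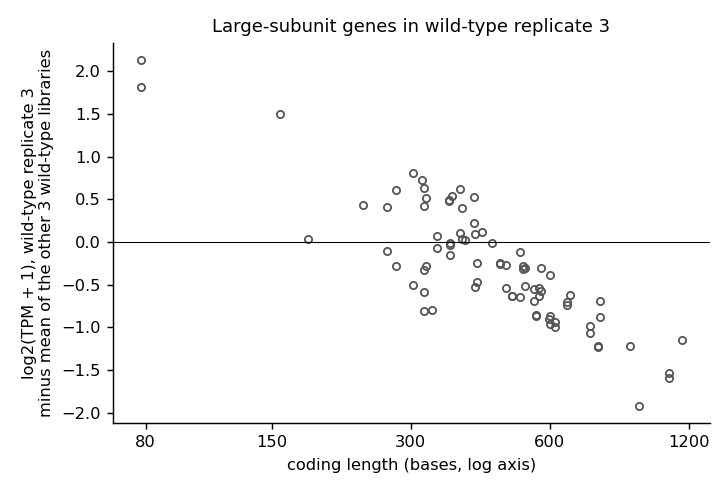
Difference in log2(TPM + 1) between wild-type replicate 3 and the mean of the other 3 wild-type libraries (vertical) for each of the 81 large-subunit genes (circles) against coding length in bases (horizontal, log axis). The shortest genes lie above 0 and all 16 genes over 600 bases lie below it.

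The share of all TPM taken by the members was lowest in *fab1∆*. It was 26.6%, 26.6%, 27.1% and 26.6% in the *fab1∆* libraries, against 28.4%, 28.5%, 27.6% and 28.3% in *atg18∆*, 29.0%, 27.3%, 27.9% and 28.5% in *vph1∆*, and 28.4%, 28.3%, 40.8% and 28.0% in wild type. Each *fab1∆* library was below each of the other 12. With RPL41A and RPL41B left out of the members and of the total, the share was 22.5% ± 0.223 in *fab1∆* (SD, n = 4), against 24.3% ± 0.163 in *atg18∆*, 24.4% ± 0.607 in *vph1∆* and 25.2% ± 1.33 in wild type. With all 4 wild-type libraries, the difference between *fab1∆* and wild type was then -2.67 percentage points, against -4.68 with RPL41. Both differences depend on wild-type replicate 3, where RPL41 took 18.7% of TPM, against 4.77%, 4.76% and 5.15% in the other wild-type libraries and a mean of 5.39% in *fab1∆*. Without that library the difference with RPL41 was -1.54. With RPL41 left out, wild type read 24.9%, 24.7% and 24.1% in the other libraries and 27.2% in replicate 3. The share of the small-subunit genes was also lowest in *fab1∆*, at 17.7% ± 0.166, against 19.1% ± 0.071 in *atg18∆*, 19.0% ± 0.422 in *vph1∆* and 20.0% ± 1.31 in wild type. The *atg18∆* and *vph1∆* shares overlapped each other and those of wild-type replicates 1, 2 and 4. In bulk RNA a lower share cannot be told apart from a rise in other transcripts, nor fewer transcripts per cell from a change in the mix of cells.

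**Figure D2:**
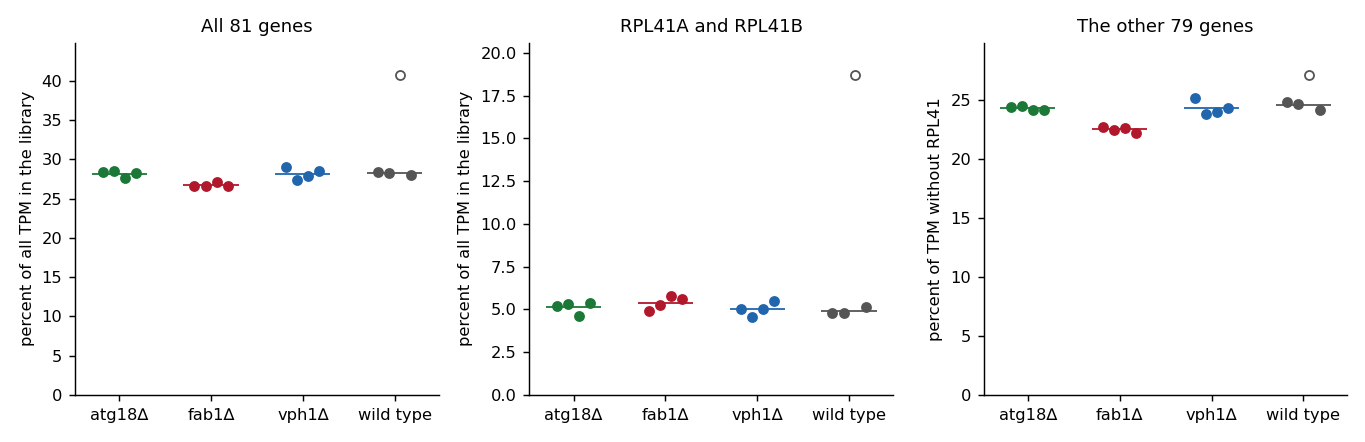
Percent of all TPM in a library (vertical, from 0) taken by all 81 large-subunit genes (left), by RPL41A and RPL41B (middle) and by the other 79 genes as a share of the total without RPL41 (right), with 1 point per library. Lines are means without wild-type replicate 3 (open circle), which reaches 40.8% on the left, where the *fab1∆* libraries lie at 26.6% to 27.1%.

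Each gene was then compared between strains by limma on log2(TPM + 1) over 6404 genes, and called at an adjusted p under 0.05. In *fab1∆* against wild type, 8 of 81 members were called (9.88%), 7 lower and 1 higher, where 23.5% of all genes were called, 0.609% lower and 22.9% higher. Leaving out wild-type replicate 3 raised the number to 57 (70.4%), 54 of them lower, where 42.4% of all genes were called, 10.0% lower and 32.4% higher. All 8 members called with 16 libraries were among the 57, in the same direction. Wild-type replicate 3 also moved the centre of all genes: against wild type, the 6404 genes had a median log2 fold change of 0.27 (*atg18∆*), 0.25 (*fab1∆*) and 0.27 (*vph1∆*) with it, and of 0.05, 0.07 and 0.06 without it. The median member in *fab1∆* was at -0.08 with it and -0.14 without it, which is 0.33 and 0.21 below the median of all genes. With libraries scaled to a common median, 49 members were called, all of them lower, where 38.2% of all genes were called, 23.3% lower.

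RPL25, which sits at the tunnel exit where the signal recognition particle docks, had the smallest p of the members. It was at 3746, 3621, 3788 and 3625 TPM in *fab1∆*, against 4351, 4432, 4586 and 4500 TPM in *atg18∆*, 4453, 4251, 4586 and 4372 TPM in *vph1∆*, and 4483, 4357, 4841 and 4510 TPM in wild type. The *fab1∆* libraries did not overlap those of any other strain, and wild-type replicate 3 was the highest of its strain. The log2 fold change in *fab1∆* against wild type was -0.30 ± 0.06 (SE, adjusted p = 0.00222), with -0.27 ± 0.03 without wild-type replicate 3 (adjusted p = 7.94e-06). RPL25 was also lower in *fab1∆* than in *atg18∆* (-0.27 ± 0.06, adjusted p = 0.00654) and higher in *vph1∆* than in *fab1∆* (0.26 ± 0.06, adjusted p = 0.0166).

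RPL9A encodes a protein near the binding site of elongation factors. Its libraries read 1906, 1862, 1853 and 1810 TPM in *fab1∆*, against 2288, 2297, 1862 and 2333 TPM in wild type. The *fab1∆* values overlapped wild type only through replicate 3, and the log2 fold change was -0.23 ± 0.08 with it (adjusted p = 0.0369) and -0.31 ± 0.03 without it (adjusted p = 2.59e-06). RPL42A and RPL42B, whose product lies at the exit site for tRNA, were called in *fab1∆* at -0.26 and -0.37. RPL42B stood at 3508, 3444, 3678 and 3475 TPM in *fab1∆* and at 4055, 4059, 6356 and 4150 TPM in wild type, without overlap. The high wild-type value is replicate 3, and without it the change of RPL42B was -0.21 ± 0.03 (adjusted p = 5.22e-05) and that of RPL42A -0.16 ± 0.04 (adjusted p = 0.00765).

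The other genes called lower in *fab1∆* were RPL35B (-0.42, adjusted p = 0.00486), whose protein lies near the tunnel exit, RPL22B (-0.39, adjusted p = 0.02), the weaker gene for a protein that cells can live without, and RPL40B (-0.23, adjusted p = 0.0127), which is made as a fusion to ubiquitin. RPL22B had 295, 306, 311 and 308 TPM in *fab1∆* and 370, 358, 529 and 362 TPM in wild type. Leaving that library out, these log2 fold changes were -0.30, -0.25 and -0.22, and each was still called. RPL15B, the very weak partner of RPL15A, was the only member called higher. It read 42.4, 44.7, 40.7 and 39.6 TPM in *fab1∆*, against 36.0, 38.4, 33.8 and 34.8 TPM in *atg18∆*, 38.1, 36.8, 32.8 and 32.6 TPM in *vph1∆*, and 36.7, 32.5, 16.4 and 31.9 TPM in wild type. All 4 *fab1∆* values lay above the other 12, and the log2 fold change against wild type was 0.55 ± 0.18 with replicate 3 (adjusted p = 0.0334) and 0.31 ± 0.07 without it (adjusted p = 0.00253). With libraries scaled to a common median RPL15B was not called (0.22, adjusted p = 0.0766).

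**Figure D3:**
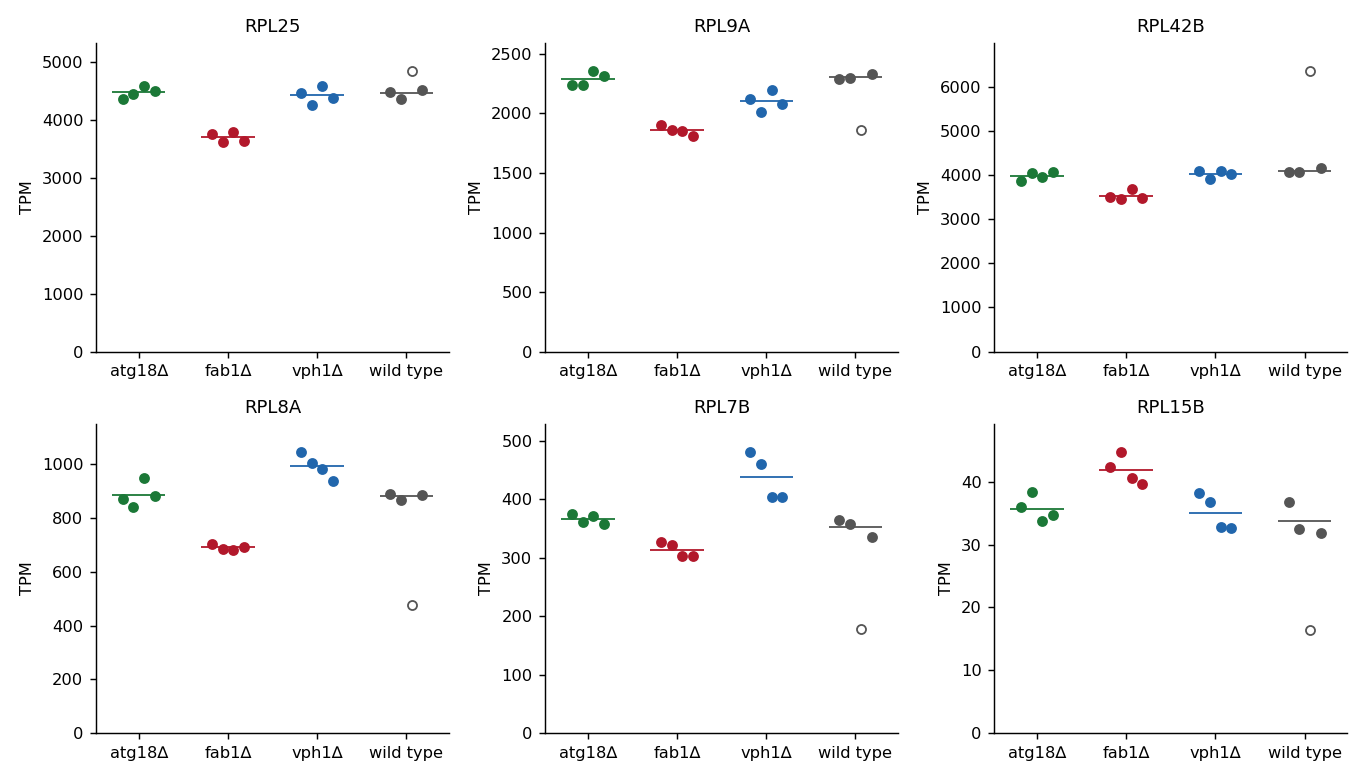
TPM (vertical, from 0) of RPL25, RPL9A, RPL42B, RPL8A, RPL7B and RPL15B in each library, by strain. Lines are means without wild-type replicate 3 (open circle). RPL25 is at 3621 to 3788 TPM in the 4 *fab1∆* libraries and at 4251 TPM or above in all others, and RPL15B has its 4 highest values in *fab1∆*.

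Some members called only without wild-type replicate 3 are named here after their values were seen. The lowest log2 fold change of the 54 was that of RPL8A (-0.35 ± 0.04, adjusted p = 9.15e-06), and RPL15A was at -0.31 ± 0.03 (adjusted p = 3.63e-06), while the other members called higher were RPL41B (0.21 ± 0.08, adjusted p = 0.0408) and RPL26A (0.17 ± 0.04, adjusted p = 0.00262). Both genes were called, in either direction, in 19 of the 35 pairs, and both were below wild type in 29. By site in the subunit and in the same setting, 4 of 7 genes of the P stalk were lower, 2 of 3 genes for the proteins that carry the 5S rRNA, 3 of 4 genes at the peptidyl transferase centre and 10 of 14 genes at the exit tunnel, where RPL26A was the 1 called higher. These counts stand beside 66.7% of all members and 10.0% of all genes called lower. Of genes with an intron, 36 of 53 were lower and 1 was higher, and of genes without one, 18 of 28 were lower and 2 were higher. Against this, 33 of 34 genes for the large subunit of the mitochondrial ribosome were higher and none lower, with a median log2 fold change of 0.27. Without wild-type replicate 3, 32.4% of all genes were called higher and the median of all genes was 0.07. With median scaling as well, 62 members were called in *fab1∆* against wild type, all lower, where 51.2% of all genes were called. The higher calls of RPL15B, RPL41B and RPL26A were thus lost.

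The single-copy members, which have no partner to share reads with, were counted separately. With wild-type replicate 3 left out, 10 of the 11 were below wild type in *fab1∆* and 5 were called, all lower, where 42.4% of all genes were called, 10.0% lower. RPL3, which reaches to the peptidyl transferase centre, was at 2471, 2440, 2299 and 2445 TPM in *fab1∆* and at 2928, 2886, 1288 and 2760 TPM in wild type. RPL10, which joins the subunit late in the cytoplasm, was at 3325, 3282, 3195 and 3252 TPM in *fab1∆* and at 3813, 3751, 2429 and 3644 TPM in wild type. In both genes the *fab1∆* values were below wild-type replicates 1, 2 and 4 and above replicate 3. RPL30, which regulates splicing of its own transcript, had 5812, 5858, 6008 and 6119 TPM in *fab1∆* and 6688, 6709, 10937 and 6434 TPM in wild type. The groups did not overlap in RPL30, while RPL29 (7827, 7818, 8367 and 8111 TPM in *fab1∆*, against 8326, 8194, 8463 and 8263 TPM in wild type) overlapped and was not called with or without replicate 3 (adjusted p = 0.625 and 0.539).

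In *atg18∆* and in *vph1∆* against wild type, none of the 81 members was called by limma with 16 libraries, where 0.0468% and 4.87% of all genes were called. Before adjustment, *atg18∆* had 0 members at p under 0.05 (6.32% of genes) and *vph1∆* had 3 (23.2% of genes). The smallest p in *atg18∆* belonged to RPL35B (-0.19 ± 0.10), RPL37B (-0.16) and RPL15B (0.33), each with an adjusted p of 0.294. When wild-type replicate 3 was left out, *atg18∆* still had 0 members called (0.0937% of all genes), with 2 at p under 0.05 before adjustment (5.93% of genes). The median member was then at -0.02. Relative to the median of all genes, the median member stood at -0.21 with 16 libraries and at -0.06 without that library. With median scaling and that library left out, 79 of 81 members were below wild type and 0 were called (0.125% of all genes).

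In *vph1∆* the members with the smallest p were RPL7B (0.55 ± 0.17, adjusted p = 0.0733), RPL35B (-0.31 ± 0.10, adjusted p = 0.0811) and RPL8A (0.39 ± 0.15, adjusted p = 0.149). Once wild-type replicate 3 was left out, 10 members were called (12.3%), 3 higher and 7 lower, where 14.7% of all genes were called, 11.6% higher and 3.12% lower. With median scaling as well, 6 were called, all lower, and the 3 higher calls were lost, with RPL7B at 0.22 (adjusted p = 0.127), RPL8A at 0.08 (adjusted p = 0.409) and RPL39 at 0.07 (adjusted p = 0.614). RPL7B, much the weaker gene of its pair, was at 481, 461, 404 and 405 TPM in *vph1∆*, against 365, 358, 178 and 335 TPM in wild type. The groups did not overlap, and the change without replicate 3 was 0.31 ± 0.06 (adjusted p = 0.0022). The split of RPL7B from RPL7A rests on a small part of their reads. RPL8A had 1047, 1004, 984 and 938 TPM in *vph1∆* and 891, 868, 478 and 886 TPM in wild type, also without overlap, with 0.17 ± 0.04 without replicate 3 (adjusted p = 0.0123). The third was RPL39 (0.15, adjusted p = 0.0254), and the 7 lower genes ran from RPL35B (-0.19 ± 0.03, adjusted p = 0.00207) to RPL11A (-0.11, adjusted p = 0.0431).

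The mutants were also compared with each other, which uses no wild-type level, although wild-type replicate 3 still enters the shared estimate of the spread. In *fab1∆* against *atg18∆*, 73 of 81 members were lower and the median was -0.13, where the median of all genes was 0.02. With 16 libraries 3 members were called, all lower (10.9% of all genes were called, 0.593% lower), and these were RPL25, RPL9A (-0.30 ± 0.08, adjusted p = 0.0164) and RPL16A (-0.28 ± 0.09, adjusted p = 0.0495). With wild-type replicate 3 left out of the spread, 53 were called, 50 of them lower (47.7% of all genes, 17.0% lower). RPL16A was at 1490, 1556, 1603 and 1678 TPM in *fab1∆* and at 1938, 1845, 1972 and 1910 TPM in *atg18∆*, without overlap.

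In *vph1∆* against *fab1∆*, 72 of 81 members were higher, with a median of 0.12, and 2 were called, both higher (6.29% of all genes, 0.531% higher). These were RPL25 and RPL8A, which stood at 1047, 1004, 984 and 938 TPM in *vph1∆* and at 702, 686, 682 and 693 TPM in *fab1∆*, a log2 fold change of 0.52 ± 0.15 (adjusted p = 0.0475). Taking wild-type replicate 3 out of the spread, 54 were called, 52 of them higher (41.1% of all genes, 15.3% higher). In *vph1∆* against *atg18∆*, 41 members were above and 40 below, the median was 0.00 and none was called (0.671% of all genes), with 0 at p under 0.05 before adjustment (6.53% of genes). With wild-type replicate 3 left out of the spread, 8 were called (12.1% of all genes).

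**Figure D4:**
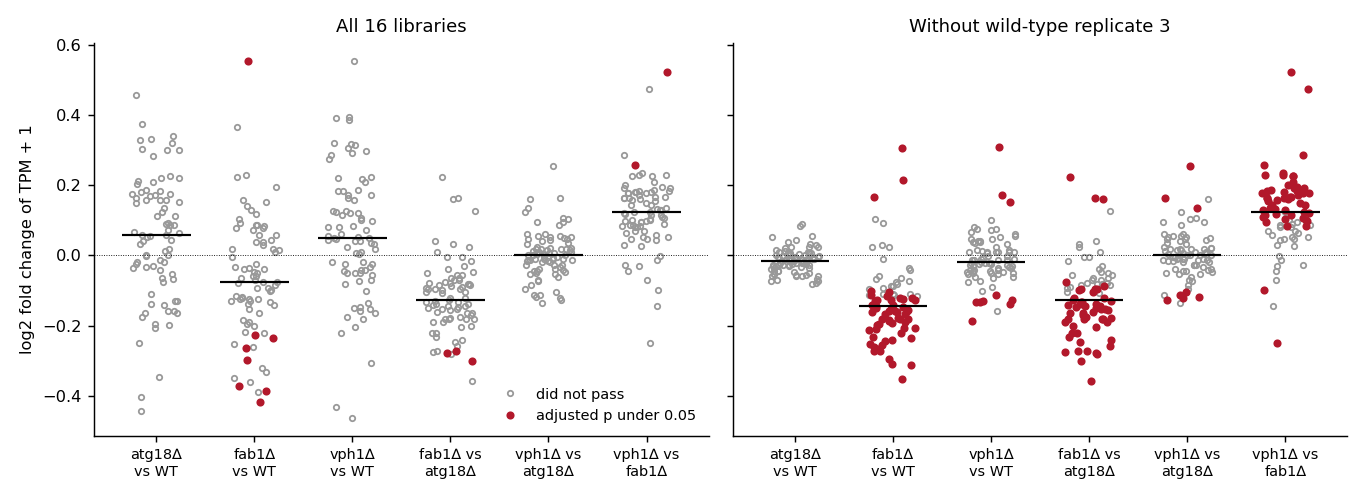
Log2 fold change of TPM + 1 (vertical) of each of the 81 large-subunit genes in 6 comparisons of strains, with all 16 libraries (left) and without wild-type replicate 3 (right). Filled points passed an adjusted p under 0.05, open points did not, and lines are medians. In *fab1∆* against wild type 8 genes passed on the left and 57 on the right, and *atg18∆* against wild type has no filled point in either panel.

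Genes that act on the large subunit were counted from lists of regulators, chaperones, assembly factors and elongation factors. Of 10 regulators of ribosomal protein genes, 1 was called with 16 libraries in *fab1∆* and in *vph1∆* (23.5% and 4.87% of all genes), CRF1, a corepressor that acts through Fhl1. It was at 5.03, 5.53, 5.58 and 5.92 TPM in *fab1∆*, 4.06, 5.18, 4.78 and 4.4 TPM in *vph1∆*, and 2.8, 2.88, 1.28 and 3.24 TPM in wild type. Neither mutant overlapped wild type. The *fab1∆* change of CRF1 was 0.91 ± 0.16 (adjusted p = 0.000494), or 0.71 ± 0.08 when wild-type replicate 3 was left out. The *vph1∆* change of CRF1 was 0.69 ± 0.16 (adjusted p = 0.019), or 0.49 ± 0.08 with that library left out. RAP1 itself was called lower in *fab1∆* only without that library (-0.47 ± 0.11, adjusted p = 0.00353). In the same setting 3 of 7 chaperones of single 60S proteins were lower in *fab1∆* (RRB1, SYO1 and BCP1) and none higher, and of 9 late assembly and export factors tested 3 were lower (NMD3, ARX1 and LSG1) and SDO1 was higher. Of 9 elongation factor genes, 3 were lower (EFT2, EFB1 and TEF4) and none higher. Of all genes, 10.0% were lower and 32.4% higher in that setting. In *vph1∆*, again without that library, DOT6 and HMO1 of the regulators were lower (-0.28 and -0.12) and TIF6, an assembly factor, was higher (0.17), where 3.12% of all genes were lower and 11.6% higher. With 16 libraries, none of these 3 lists of chaperones, assembly factors and elongation factors had a gene called in any mutant against wild type.

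The balance of paralogues compares the genes of a pair within a library, so that neither scaling nor the total of the library enters. In 21 of the 35 pairs the A gene was the stronger on average, and in 14 the B gene. The most equal pairs were RPL20 (47.5% of the pair's TPM from A), RPL12 (52.7%) and RPP1 (54.9%), and the most unequal were RPL15 (98.7%), RPL18 (89.8%) and RPL22 (87.8%). The stronger gene was the same in all 16 libraries in 33 pairs. The exceptions were RPL12, which lay near 50%, and RPP1, in wild-type replicate 3 alone.

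Changes in balance between strains were small in size. Over the libraries other than wild-type replicate 3, the mean share from A differed between the highest and the lowest strain by a median of 1.62 percentage points over the 35 pairs and by at most 6.61 points, in RPL8. The difference log2(A + 1) - log2(B + 1) was tested by limma over all 61 pairs of genes with A and B names in the table, of which 26 belong to the small subunit or to other proteins. In *atg18∆* against wild type no pair was called (0.0% of the 61), with 4 of the 35 at p under 0.05 before adjustment (13.1% of the 61). In *fab1∆* 11 of 35 pairs were called (36.1% of the 61), 5 with a balance toward A and 6 toward B, and in *vph1∆* 7 were called (21.3% of the 61), 4 toward A and 3 toward B. With wild-type replicate 3 left out, the counts were 0 in *atg18∆* (0.0% of the 61, with 2 of the 35 and 9.84% of the 61 at p under 0.05 before adjustment), 18 in *fab1∆* (59.0%) and 12 in *vph1∆* (36.1%), and each pair called with 16 libraries was called again in the same direction. Between mutants, 8 pairs were called in *fab1∆* against *atg18∆* (27.9% of the 61), 5 in *vph1∆* against *atg18∆* (18.0%) and 6 in *vph1∆* against *fab1∆* (26.2%), and leaving wild-type replicate 3 out of the spread gave 15 (50.8%), 11 (32.8%) and 17 (55.7%). Of the other 26 pairs, 11 were called in *fab1∆* and 6 in *vph1∆* against wild type, and 18 and 10 without wild-type replicate 3. The share of large-subunit pairs called was thus no larger than that of the other pairs.

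RPL15, whose protein lies deep in the 60S core, had the smallest p. RPL15A gave 98.41%, 98.31%, 98.41% and 98.40% of the pair in *fab1∆*, against 98.81%, 98.77%, 98.94% and 98.90% in *atg18∆*, 98.74%, 98.70%, 98.88% and 98.86% in *vph1∆*, and 98.86%, 98.96%, 99.02% and 99.01% in wild type. The 4 *fab1∆* libraries lay below the other 12, and the log2 balance was shifted by -0.63 ± 0.06 toward B (adjusted p = 8.42e-07). Both genes took part, RPL15B being higher and RPL15A lower, and since RPL15A makes nearly the whole pair, the summed level was also lower, at 2665, 2641, 2560 and 2480 TPM in *fab1∆* and 3229, 3120, 1667 and 3219 TPM in wild type. A smaller shift toward B was called in *vph1∆* (-0.20 ± 0.06, adjusted p = 0.0181), where the range of RPL15A, 98.70% to 98.88%, overlapped that of wild type.

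RPL8, a protein that takes part in early assembly of the subunit, shifted in opposite directions. RPL8A gave 24.3%, 24.1%, 24.3% and 24.3% of the pair in *fab1∆*, and 30.99%, 31.78%, 31.16% and 29.52% in *vph1∆*, against 26.5%, 27.0%, 29.2% and 28.4% in *atg18∆* and 27.2%, 27.2%, 25.1% and 28.7% in wild type. The *fab1∆* values lay below all others and the *vph1∆* values above all others. The log2 balance of *fab1∆* was -0.21 ± 0.05 from wild type (adjusted p = 0.00739) and that of *vph1∆* 0.27 ± 0.05 from it (adjusted p = 0.00182), and between *vph1∆* and *fab1∆* by 0.48 ± 0.05 (adjusted p = 1.85e-05).

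RPL7, a pair whose split rests on a small part of its reads, changed its balance in *vph1∆*. RPL7A gave 82.5%, 82.1%, 84.1% and 84.3% of the pair in *vph1∆*, against 86.4%, 86.4%, 85.8% and 86.5% in wild type, a shift of -0.33 ± 0.05 (adjusted p = 0.000114) without overlap. In *fab1∆* the share was 85.5% to 86.6% and the pair was not called, and the difference between *vph1∆* and *fab1∆* was -0.31 ± 0.05 (adjusted p = 0.000197). The summed level of RPL7 was 2756, 2573, 2542 and 2584 TPM in *vph1∆*, and 2675, 2637, 1251 and 2483 TPM in wild type. The *vph1∆* sums lay within the range of wild-type replicates 1, 2 and 4 except in the first library.

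RPL35 moved toward A in both mutants, with 62.8%, 62.8%, 61.3% and 62.4% from A in *fab1∆* and 62.6%, 61.5%, 61.1% and 61.0% in *vph1∆*, against 59.3%, 59.4%, 59.1% and 58.2% in wild type. Neither mutant overlapped wild type, and the shifts were 0.20 ± 0.03 (adjusted p = 0.000257) and 0.15 ± 0.03 (adjusted p = 0.00215), in a pair with few bases to tell the genes apart. RPL9 moved toward B in both mutants. The shift was -0.25 ± 0.07 for *fab1∆* (adjusted p = 0.00835) and -0.28 ± 0.07 for *vph1∆* (adjusted p = 0.0056), with 70.2% to 71.4% and 68.6% to 72.0% from A against 72.7% to 76.8% in wild type. The highest wild-type value is replicate 3. Without it wild type ran from 72.7% to 74.4%, and the shifts were -0.18 and -0.21. In *atg18∆* the share was 71.5% to 73.7%, which overlapped wild type and *vph1∆*. The comparisons of *fab1∆* and *vph1∆* share the wild-type libraries.

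RPL26, at the rim of the exit tunnel, moved toward A in *fab1∆*, with 37.1%, 36.4%, 35.6% and 36.2% from A, against 32.76%, 32.43%, 24.80% and 30.99% in wild type. The low wild-type value is replicate 3. The shift was 0.40 ± 0.09 with it (adjusted p = 0.00309) and 0.27 ± 0.04 without it (adjusted p = 2.55e-05). Here the summed level overlapped between the strains except in wild-type replicate 3, at 5231, 5172, 5416 and 5349 TPM in *fab1∆* and 5380, 5389, 7430 and 5245 TPM in wild type. RPL1, RPL6 and RPL12 were also called in *fab1∆* (0.13, -0.18 and -0.16) and RPL24, which joins the particle late, in *vph1∆* (0.11, adjusted p = 0.00765).

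**Figure D5:**
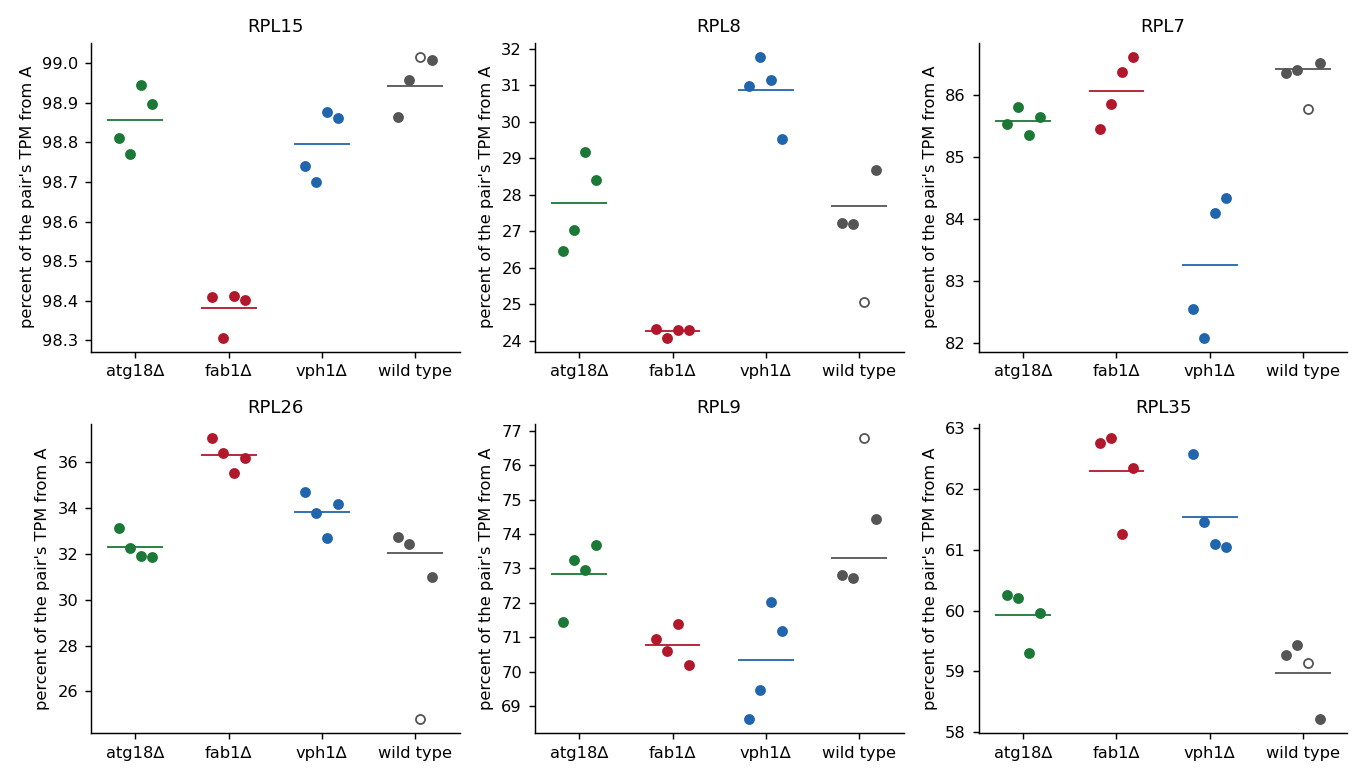
Percent of the TPM of a pair that came from its A gene (vertical, with a separate range for each pair that does not start at 0) in each library for RPL15, RPL8, RPL7, RPL26, RPL9 and RPL35. Lines are means without wild-type replicate 3 (open circle). RPL8 is at 24.1% to 24.3% in *fab1∆* and at 29.5% to 31.8% in *vph1∆*, on opposite sides of wild type, and RPL15 has its 4 lowest values in *fab1∆*.

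Per protein, the TPM of both genes of a pair were added together and compared as means over the libraries other than wild-type replicate 3. In this way 44 of 46 proteins had a lower summed TPM in *fab1∆* than in wild type, with a median difference of -10.0% and a range from -18.9% in RPL15 to 10.0% in RPL41. In *vph1∆* 29 of 46 were lower, with a median of -0.97% and a range from -10.3% in RPP0 to 11.1% in RPL39. In *atg18∆* 34 of 46 were lower, with a median of -1.26% and a range from -5.34% in RPL22 to 4.72% in RPL41. These counts are a description of the means, and the proteins share their libraries.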

How the data were processed

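RNA was sequenced from 4 libraries per strain, 16 in all. The authors quantified transcripts with Salmon (0.9.1 per the paper's methods, 0.8.1 per the submitters' processing notes) against the Ensembl SacCer3 transcriptome, without adaptor trimming, and deposited TPM values, which were used as deposited. The labels give polyA RNA, whereas the protocol describes no polyA selection. TPM holds no read numbers, so depth is unknown and precision comes from the spread between the 4 libraries.

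Groups came from the labels. The 6404 genes whose TPM averaged 1 or more over the 16 libraries were fitted as log2(TPM + 1) with limma 3.58.1 in R 4.3.3, with strain as the factor, the variance allowed to follow the level, and Benjamini-Hochberg adjustment over all genes at 0.05. Fold changes are on the log2(TPM + 1) scale and understate changes of low genes. Pair balances were fitted in the same way, without a trend, over 61 pairs in which both genes passed that filter. The share of TPM is given without a test, because, although the rule for members uses names alone, the members and gene lists were chosen with earlier results of these data known. Both fits were tested on data simulated for *fab1∆* against wild type with the spread of the libraries other than wild-type replicate 3. Over 6404 genes, 34 of 50 genes changed by 0.3 on the log2 scale, 44 of 50 changed by 0.5, 44 of 50 changed by -0.5, 50 of 50 changed by 1 and 12 of 6204 unchanged genes were called. Over 61 pairs, 12 of 12 changed by 0.3 and 1 of 49 unchanged pairs were called. The simulated data hold no library like wild-type replicate 3, so these counts do not describe the fits with all 16 libraries. No change smaller than 0.3 was simulated. Introns, coding lengths and sequences came from the RefSeq R64 annotation, which 6011 of the 6844 identifiers matched. Named members are those called against wild type (the 3 with the smallest p where fewer than 3 were), the 5 highest and 5 lowest, and the single-copy genes. Named pairs are the most equal, the most unequal and, of those called against wild type, the ones with the smallest p. Not every called pair is named.

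The alternatives were pseudocounts of 0.1 and 5, a filter at an average of 10 TPM or none, libraries shifted to a common median (median scaling) or quantile-normalized, the 2 strains fitted alone, other denominators of the share, replicate number as a block, a term for replicates 1 and 2 against 3 and 4, removal of a length trend by loess (span 0.5), and each library left out. Median scaling without wild-type replicate 3, that library left out of comparisons between mutants, and the share without RPL41 were chosen after seeing the data.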

Additional observations from a re-analysis of the deposited data

Results flagged for a closer look

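The values of the named members and pairs and the shares of TPM were checked within each strain for a library whose gap to its nearest neighbour divided by the range of the 4 libraries is past Dixon's critical value, which chance gives in about 1 of 20 such groups. In wild type, 21 of 41 groups passed, each through replicate 3, against 1 in *atg18∆*, 4 in *fab1∆* and 2 in *vph1∆*. The wild-type ratios were 0.878 for RPL10, 0.875 for RPL18B, 0.928 for RPL22B, 0.898 for RPL3, 0.939 for RPL30, 0.896 for RPL35B, 0.846 for RPL37B, 0.969 for RPL39, 0.979 for RPL41A, 0.964 for RPL41B, 0.921 for RPL42A, 0.959 for RPL42B, 0.9002 for RPL5, 0.839 for RPL7B, 0.943 for RPL8A, 0.903 for RPL9A and 0.878 for RPP0, with 0.969 for the share of TPM taken by all members. For the percent from A they were 0.98 in RPL20, 0.939 in RPL22 and 0.85 in RPP1.

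In the mutants the ratios were 0.873 for RPL41A (*atg18∆* replicate 3), 0.85 for RPL38 and 0.911 for the share of TPM (both *fab1∆* replicate 3), 0.9001 for RPL15 and 0.862 for RPL8 in percent from A (both *fab1∆* replicate 2), 0.903 for RPL37B (*vph1∆* replicate 4) and 0.849 for RPL42A (*vph1∆* replicate 1). The balance of RPL8 was also singled out because *fab1∆* and *vph1∆* both passed the threshold against wild type in opposite directions, and the test between these mutants gave a shift of 0.48 on the log2 scale.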

How the results depend on the processing

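The number of large-subunit genes called in *fab1∆* against wild type was 49 with median scaling (38.2% of all genes were called), 16 with quantile normalization (39.0% of all genes), 0 by limma on these strains alone (8.29%, with 6 members at p under 0.05 before adjustment) and 62 with median scaling without wild-type replicate 3 (51.2%), against 8 (23.5%). In *vph1∆* against wild type it was 1 with median scaling (8.09%), 1 with quantile normalization (8.64%), 1 with a term for replicates 1 and 2 against 3 and 4 (5.54%), and 6, all lower, with median scaling without wild-type replicate 3 (13.2%), against 0 (4.87%). In *fab1∆* against *atg18∆* the counts were 14 with median scaling (40.2%), 19 with quantile normalization (44.0%), 55 with the 2 strains alone (49.8%), 11 with the length trend removed (8.79%) and 39 with median scaling without wild-type replicate 3 (56.0%), against 3 (10.9%). In *vph1∆* against *fab1∆* they were 1 with a pseudocount of 0.1 (5.47%), 1 with a mean TPM of 10 or more (4.65%), 5 with median scaling (31.9%), 13 with quantile normalization (35.0%), 49 with the 2 strains alone (43.4%), 10 with the length trend removed (5.75%) and 33 with median scaling without wild-type replicate 3 (48.8%), against 2 (6.29%), and in *vph1∆* against *atg18∆* 1 with the 2 strains alone (6.51%), against 0 (0.671%). For pair balance, fitting the 2 strains alone gave 3 pairs in *vph1∆* against wild type (13.1% of the 61, against 7), 15 in *fab1∆* against *atg18∆* (49.2%, against 8), 10 in *vph1∆* against *atg18∆* (29.5%, against 5) and 15 in *vph1∆* against *fab1∆* (52.5%, against 6).

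Leaving out 1 library at a time gave 3 to 57 genes in *fab1∆* (16.7% to 42.4% of all genes), 0 to 10 in *vph1∆* (1.78% to 14.7%) and 0 to 0 in *atg18∆* (0.0468% to 0.0937%) against wild type. Between mutants it gave 1 to 53 in *fab1∆* against *atg18∆* (7.73% to 47.7%), 0 to 8 in *vph1∆* against *atg18∆* (0.375% to 12.1%) and 0 to 54 in *vph1∆* against *fab1∆* (4.08% to 41.1%). The highest count came each time without wild-type replicate 3 except in *atg18∆*, and so did the highest share of all genes in every comparison. For pair balance the ranges against wild type were 8 to 18 in *fab1∆* (26.2% to 59.0% of the 61), 6 to 12 in *vph1∆* (19.7% to 36.1%) and 0 to 0 in *atg18∆* (0.0%). For the same 3 comparisons of mutants in order they were 5 to 15 (16.4% to 50.8%), 2 to 11 (9.84% to 32.8%) and 6 to 17 (18.0% to 55.7%). The difference in the share of TPM from wild type, in percentage points, with all libraries stood at -3.20 (*atg18∆*), -4.68 (*fab1∆*) and -3.22 (*vph1∆*). It ran from -4.31 to -0.065 in *atg18∆*, -5.79 to -1.54 in *fab1∆* and -4.34 to -0.087 in *vph1∆* over the libraries left out, nearest 0 without wild-type replicate 3. With wild-type replicate 3 kept, it was -0.90, -2.67 and -0.86 without RPL41A and RPL41B, and -3.61 in *atg18∆* and -5.15 in *fab1∆* with the 10 most abundant other genes out of the denominator.

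The labels do not say what a replicate number marks. Deviations of same-numbered libraries correlated over 0.1 in 16 of 24 pairs (median 0.181, lowest -0.125), against 20 of 72 pairs with different numbers (median -0.059), and 5 of 16 libraries correlated best with their own number. Since not every same-numbered pair was over 0.1, the numbers were not taken as pairs. With the replicate block, 7 genes were called in *fab1∆* (22.7% of all genes), 0 in *vph1∆* (4.72%) and 0 in *atg18∆* (0.0468%) against wild type. Between mutants, 2 were called in *fab1∆* against *atg18∆* (10.4%), 0 in *vph1∆* against *atg18∆* (0.656%) and 1 in *vph1∆* against *fab1∆* (5.89%). The balance counts with the block were 13, 9 and 0 pairs in *fab1∆*, *vph1∆* and *atg18∆* against wild type (11, 7 and 0 without it). Of the 61 pairs, 39.3%, 26.2% and 0.0% were called there. Between mutants, the block gave 10 in *fab1∆* against *atg18∆* (31.1% of the 61, against 8 without it), 7 in *vph1∆* against *atg18∆* (19.7%, against 5) and 7 in *vph1∆* against *fab1∆* (27.9%, against 6).

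Over 366 alternatives, 19 results for single genes kept their direction and side of the threshold in 291, lost the call in 66 and gained it in 8, and 1 turned round, RPL37B in *atg18∆*, at 0.063 with the length trend removed, against -0.16. Over 482 alternatives, 31 pair results kept theirs in 457 and lost the call in 25. The cause of these changes was not tested. TPM keep no read numbers, so how far depth limits the weak genes, RPL15B above all, is unknown.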
